A study of Mus musculus with 16 samples.

Results

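The circadian clock of gastrocnemius muscle was described through 10 genes chosen by symbol: Arntl (also called Bmal1), Clock, Per1, Per2, Per3, Cry1, Cry2, Nr1d1, Nr1d2 and Dbp. All 10 were among the 21923 genes of the count table, and all 10 passed the filter on low counts in every comparison. The libraries were made from poly(A) RNA of the calf muscle of 16 mice at day 30 of a cancer cachexia experiment, with 4 mice in each of 4 groups. Normal control (NOR) mice carried no tumor. They were injected with PBS in place of tumor cells, and were given PBS daily by intraperitoneal injection from day 9. Cachexia (CAC) mice bore tumors and were given PBS daily by intraperitoneal injection from day 9, and amiloride (AM) mice bore the same tumors and were given amiloride, a potassium-sparing diuretic, at 2 mg/kg on the same schedule. Knock-down (KD) mice bore tumor cells that expressed shRNAs against Rab27a and Rab27b, GTPases needed for exosome release, and were given PBS as the CAC mice were. In each group, mice 1 and 2 were labelled C57BL/6, the host of Lewis lung carcinoma (LLC) cells, and mice 3 and 4 were labelled BALB/c, the host of CT26 colon carcinoma cells, so the labelled strain and the tumor line cannot be told apart. The mice were adults of 6 to 8 weeks at purchase, males for C57BL/6 and both sexes for BALB/c in the labels, and were housed in 12-h light and 12-h dark. The hour of the day at which muscle was collected is not given in the sources used here. The knock-down was made in the tumor cells, so the muscle libraries hold no check of it. Library totals ran from 35913190 to 61032708 counts.

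The clock of mammalian cells is a transcription loop with a period of about a day. ARNTL and CLOCK form a heterodimer that binds E-boxes and switches on the Per, Cry, Nr1d and Dbp genes. PER and CRY proteins then return to the nucleus and repress the heterodimer, while NR1D1 and NR1D2 (REV-ERB alpha and beta) repress Arntl through ROR elements, which the ROR receptors activate. DBP is an activator that binds D-boxes. Arntl and its direct targets therefore reach their highest RNA levels at different hours, and a single collection from one muscle shows one point of each mouse's cycle. Per1 and Per2 also carry glucocorticoid response elements. In skeletal muscle the clock is known for its control of metabolic genes.

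The labels were checked against the libraries, and strain could not be read as labelled: 4 libraries, CAC mouse 4, AM mice 1 and 3 and KD mouse 1, stood apart from the other 12 at genes chosen after their values were seen. Levels in CPM, the counts scaled to a common library total after trimmed-mean scaling, were for example 0 to 0.759 for Trim12a in those 4 and 5.28 to 21.2 in the other 12, and 28.7 to 99.6 against 769 to 1200 for Rps2. Of 13210 genes with a mean of at least 1 CPM, 20 were separated by 4-fold or more in this way, none of them a clock gene. The 4 libraries held 2 labelled C57BL/6 and 2 labelled BALB/c, and no NOR mouse was among them. Strain is therefore written as labelled throughout. KD mouse 3 had 0 CPM summed over the Y-linked genes, while the other 15 mice had 111 to 174. Markers of B cells summed to under 10 CPM in NOR mouse 1, CAC mice 1 and 4 and KD mice 2 and 3, and AM mouse 1 held 1555 CPM of hepatocyte transcripts against at most 18.6 in every other library. The 6 muscle structural genes summed to 50450 CPM or more in all 16 libraries. CAC mice 3 and 4 had the lowest sums, 50450 and 77140 CPM, against 113500 to 162300 CPM in NOR mice. In bulk RNA, fewer cells of a type and less RNA per cell cannot be told apart.

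Promoter stretches of the members are shown because the loop acts through short DNA elements in them. RefSeq promoter windows (GRCm38.p6, 250 bases before to 50 after a gene's start) were found for 9 of the 10 genes and not for Per2. The letters searched, on both strands, were CACGTG (E-box), TTATGNAA (D-box), TAGGTCA (the core of a ROR element) and TGACGTC (a cAMP response element core). The sequences run 5′ to 3′ on the gene's own strand, with the matches in capitals. Bases of exons were left out of the longer stretches of Per1, Per3 and Cry1.
Per1, chr11:69098699-69098947, plus strand: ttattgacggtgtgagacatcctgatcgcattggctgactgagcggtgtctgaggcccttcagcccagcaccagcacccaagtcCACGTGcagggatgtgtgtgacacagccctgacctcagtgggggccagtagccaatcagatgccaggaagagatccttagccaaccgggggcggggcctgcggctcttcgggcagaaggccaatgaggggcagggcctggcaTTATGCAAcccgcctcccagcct
Per3, chr4:151044666-151044915, minus strand: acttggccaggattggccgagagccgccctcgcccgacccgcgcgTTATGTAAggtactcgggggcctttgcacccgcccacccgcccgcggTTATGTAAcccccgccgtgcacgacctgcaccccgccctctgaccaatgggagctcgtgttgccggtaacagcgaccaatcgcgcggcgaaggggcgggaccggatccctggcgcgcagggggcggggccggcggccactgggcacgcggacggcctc
Cry1, chr10:85185065-85185304, minus strand: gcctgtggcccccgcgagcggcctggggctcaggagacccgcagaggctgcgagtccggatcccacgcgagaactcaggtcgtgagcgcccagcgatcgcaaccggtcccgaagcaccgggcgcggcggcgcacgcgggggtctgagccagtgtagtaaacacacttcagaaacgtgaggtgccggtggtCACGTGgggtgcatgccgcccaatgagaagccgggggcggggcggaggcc
Arntl, chr7:113207530-113207558, plus strand: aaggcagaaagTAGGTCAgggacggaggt
Per1, second start, chr11:69100009-69100037, plus strand: agctcagcggcTGACGTCggtttccctgg
The Per1 stretch holds an E-box and a D-box and lies in an intron of a longer Per1 transcript. The Per3 stretch holds 2 D-boxes and lies in an intron of a Camta1 transcript in the GENCODE annotation, and no annotated transcript covers the Cry1 stretch with its E-box. The Arntl match lies in exon 1 of Arntl, just after the start. Of 32851 windows in all, 7.15% held the E-box, 3.38% the D-box, 2.61% the ROR core and 3.21% the cAMP core. A match describes letters only, and its absence from a window of 300 bases says nothing of whether a factor acts on that gene.

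Levels between genes were compared per transcript length, in FPKM, the fragments scaled by transcript length and by library total. By the means of NOR mice, the receptor gene Nr1d1 and the output gene Dbp were the most abundant clock transcripts, at 94.3 and 64.8 FPKM, followed by Nr1d2 at 36.1 FPKM and the repressor Cry2 at 19.2 FPKM. Cry1, Per1 and Arntl stood at 15.0, 12.9 and 10.4 FPKM, and Clock, Per2 and Per3 were lowest at 5.01, 4.48 and 4.48 FPKM. In CAC mice, Dbp stood at a mean of 11.6 FPKM, below Nr1d1 at 39.7, Cry2 at 35.8, Nr1d2 at 32.8, Per1 at 31.5, Cry1 at 19.4 and Arntl at 13.0 FPKM. Single NOR mice did not share the order of the means. Dbp was at 10.05 and 18.72 FPKM in NOR mice 1 and 2, below Nr1d2 at 23.92 and 26.68 FPKM, and at 142 and 88.5 FPKM in NOR mice 3 and 4, above it. Per gene, raw counts ran from 106 for Per2 in its lowest library to 16452 for Nr1d1 in its highest, which leaves a counting error well below the differences between mice of a group.

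The values of each mouse are given below in CPM, beginning with the activators. Arntl (ENSMUSG00000055116, chr7:113207465-113314126, plus strand) was at 59.95, 42.2, 8.96 and 8.63 CPM in NOR mice 1 to 4, at 40.2, 30.7, 38.5 and 24.1 CPM in CAC mice, at 21.4, 18.6, 7.70 and 44.7 CPM in AM mice and at 16.7, 20.3, 6.35 and 4.71 CPM in KD mice. The 4 KD mice all lay below the 4 CAC mice, whereas NOR mice fell on both sides of the CAC range, the 2 labelled C57BL/6 above it and the 2 labelled BALB/c below it. Clock (ENSMUSG00000029238, chr5:76209868-76304792, minus strand), the heterodimer's other partner, was at 55.0, 50.7, 32.7 and 19.8 CPM in NOR, 42.35, 41.5, 49.9 and 48.4 CPM in CAC, 36.7, 43.7, 23.5 and 48.4 CPM in AM and 41.1, 23.6, 18.3 and 23.7 CPM in KD mice. KD mice again all lay below the CAC mice, though KD mouse 1 only narrowly.

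The period genes encode the rhythmic repressors. Per1 (ENSMUSG00000020893, chr11:69095217-69109960, plus strand) was at 12.1, 19.9, 60.4 and 93.0 CPM in NOR, 101, 100.3, 92.3 and 133 CPM in CAC, 77.9, 46.5, 109 and 104 CPM in AM and 17.8, 126, 155 and 83.2 CPM in KD mice. CAC mice 1, 2 and 4 lay above all NOR mice and CAC mouse 3 lay just under the highest, NOR mouse 4. Per2 (ENSMUSG00000055866, chr1:91415982-91459324, minus strand) was at 2.74, 6.17, 38.9 and 57.1 CPM in NOR, 39.3, 35.4, 29.1 and 48.0 CPM in CAC, 22.7, 14.6, 54.6 and 10.8 CPM in AM and 10.9, 42.4, 86.7 and 53.7 CPM in KD mice. Per3 (ENSMUSG00000028957, chr4:151003652-151044665, minus strand) was at 7.74, 9.93, 39.4 and 51.7 CPM in NOR, 29.2, 28.7, 13.4 and 23.3 CPM in CAC, 19.3, 24.5, 47.0 and 10.4 CPM in AM and 13.7, 29.4, 64.5 and 63.3 CPM in KD mice. For both genes the groups overlapped in every pair, and the lowest and the highest NOR mouse spanned all 4 CAC mice.

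The cryptochromes, the stronger repressors of the heterodimer, varied less. Cry1 (ENSMUSG00000020038, chr10:85131700-85185064, minus strand) was at 28.7, 25.8, 19.6 and 25.5 CPM in NOR, 31.3, 31.4, 26.7 and 28.5 CPM in CAC, 17.1, 13.8, 23.7 and 21.1 CPM in AM and 12.4, 26.2, 31.6 and 27.4 CPM in KD mice. The 4 AM mice all lay below the 4 CAC mice. Cry2 (ENSMUSG00000068742, chr2:92403646-92434043, minus strand) was at 49.6, 39.0, 77.5 and 76.1 CPM in NOR, 108, 95.8, 89.8 and 123 CPM in CAC, 69.2, 70.9, 102 and 53.4 CPM in AM and 40.3, 109, 118 and 94.0 CPM in KD mice. Every CAC mouse lay above every NOR mouse.

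Nr1d1 and Nr1d2 encode the heme-binding receptors that repress Arntl. Nr1d1 (ENSMUSG00000020889, chr11:98767932-98775333, minus strand) was at 400.4, 256, 325 and 93.2 CPM in NOR, 117, 78.1, 85.2 and 130.3 CPM in CAC, 299.5, 365, 262 and 353 CPM in AM and 289.7, 161, 99.2 and 138 CPM in KD mice. AM mice were all above CAC mice by a wide margin, and NOR mouse 4 alone of the NOR mice fell inside the CAC range. Nr1d2 (ENSMUSG00000021775, chr14:18204054-18239127, minus strand) was at 73.2, 71.2, 137 and 118 CPM in NOR, 94.4, 85.7, 60.1 and 99.9 CPM in CAC, 92.2, 115, 147 and 75.1 CPM in AM and 77.5, 114, 150.3 and 139.7 CPM in KD mice, and all groups overlapped. Dbp (ENSMUSG00000059824, chr7:45705088-45710203, plus strand), the direct output of the loop, was at 16.1, 26.2, 204 and 125 CPM in NOR, 20.7, 20.2, 6.16 and 17.3 CPM in CAC, 87.5, 108, 197 and 36.7 CPM in AM and 63.2, 60.3, 179.75 and 192 CPM in KD mice. The lowest AM mouse and the lowest KD mouse were both above the highest CAC mouse, while NOR mice 1 and 2, at 16.1 and 26.2 CPM, lay near the CAC mice.

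**Figure D1:**
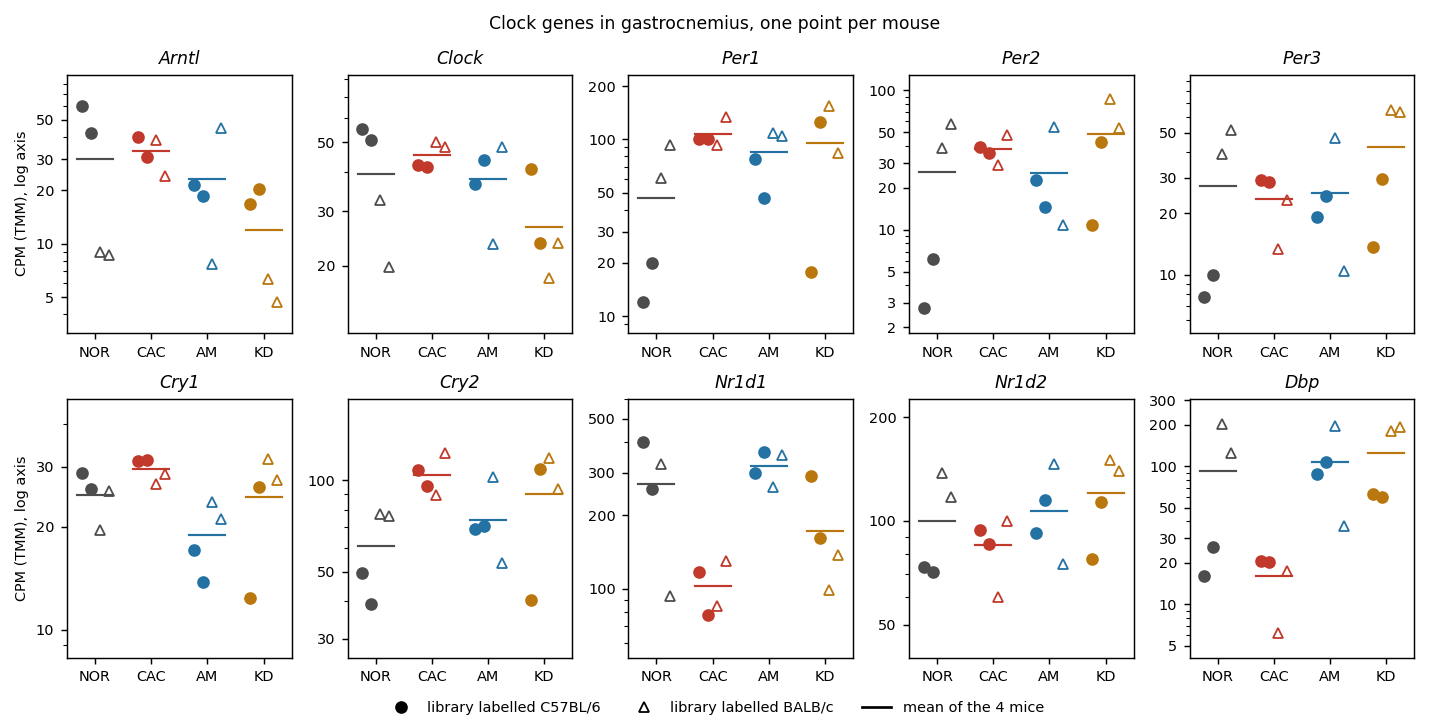
Level of each of the 10 clock genes in every mouse (CPM, log axis), with the 4 groups side by side; each point is 1 mouse, coloured by group, filled circles are labelled C57BL/6, open triangles BALB/c, and lines mark group means. For Dbp the 4 CAC mice sit between 6.16 and 20.7 CPM, below all AM and KD mice, and for most genes the NOR mice split into a pair labelled C57BL/6 and a pair labelled BALB/c.

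Comparing CAC with NOR mice asks how tumor-bearing cachexia changed the muscle clock. Only Cry2 passed the criterion (FDR of at most 0.05 and a change of at least 1.5-fold in edgeR's quasi-likelihood test): its mean rose from 60.6 ± 19.3 to 104 ± 14.9 CPM (SD, n = 4), 1.72-fold, or 0.78 ± 0.22 (SE) on the log2 scale, with FDR 0.0488. Thus 1 of 10 clock genes was called, where 9.45% of the 14666 genes tested were, 4.32% higher and 5.13% lower. It was also the only 1 of 10 whose groups did not overlap, against 23.3% of all genes, and the exact permutation test on its CPM gave p = 0.0286, the smallest that 4 against 4 mice allow. The Cry2 call did not survive leaving out any 1 of the 8 mice, with FDR then between 0.0517 and 0.1135 in the quasi-likelihood test and log2 differences of 0.62 to 0.92. Leaving out the 4 libraries that stood apart drops only CAC mouse 4 here (0.70), so it is not a further check.

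Larger differences between CAC and NOR did not pass in this test. Dbp averaged 92.7 ± 88.9 CPM in NOR and 16.1 ± 6.78 CPM in CAC mice, a log2 difference of -2.52 ± 0.79 with an edgeR FDR of 0.0688. Nr1d1 averaged 269 ± 131 against 103 ± 25.1 CPM, a log2 difference of -1.40 ± 0.41 with an edgeR FDR of 0.0546. Both were lower on average but overlapped with NOR. DESeq2, which called 1921 of the 14666 genes, called both (FDR 0.00282 for Nr1d1 and 0.0150 for Dbp). So did edgeR with all 16 mice in 1 fit (FDR 0.0326 and 0.0457), which called 1204 of 15220 genes and not Cry2 (FDR 0.120). The Dbp difference was -0.049 in mice labelled C57BL/6 alone and -3.79 in those labelled BALB/c alone, and it was -1.79 without NOR mouse 3. Per1 averaged 46.3 ± 37.6 CPM in NOR and 107 ± 18.1 CPM in CAC mice (log2 difference 1.21 ± 0.56, edgeR FDR 0.190). The remaining 6 genes lay between -0.23 (Nr1d2) and 0.54 (Per2) on the log2 scale, and Per2 ran from 0.17 without NOR mouse 1 to 1.25 without NOR mouse 4. The median difference of the 10 genes was 0.17, beside 0.01 over all genes tested. These CAC libraries also differed from NOR in the levels of muscle genes and of other cells' markers, whose part was not tested. The 6 muscle structural genes were all lower in the fit and none was called. They summed to 50450 to 118600 CPM in CAC and 113500 to 162300 CPM in NOR mice, with overlap. The 5 neutrophil markers summed to 95.8 to 222 CPM in CAC and 3.74 to 31.7 CPM in NOR mice. The 5 erythroid markers summed to 3646 to 8714 CPM in CAC and 1002 to 1374 CPM in NOR mice. The 5 tendon markers summed to 182 to 439 CPM in CAC and 622 to 979.6 CPM in NOR mice, with 3 of 5 called lower (Tnmd, Fmod and Comp). Of 5 endothelial markers 3 were higher and 2 lower in the fit, and 2 were called, both higher (Pecam1 and Vwf). Kdr went the other way and was not called, at 184 ± 72.4 CPM in NOR and 99.0 ± 28.5 CPM in CAC mice. The sums of the 5 overlapped, at 1241 to 1691 CPM in CAC and 977 to 1431 CPM in NOR mice.

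Comparing AM with CAC mice asks what amiloride changed in tumor-bearing mice. Nr1d1 rose from 103 ± 25.1 to 320.0 ± 47.9 CPM, 3.13-fold (log2 difference 1.65 ± 0.19, edgeR FDR 0.00552). Dbp rose from 16.1 ± 6.78 to 107 ± 66.8 CPM, 6.68-fold (log2 difference 2.74 ± 0.54, edgeR FDR 0.0274). These 2 of 10 members were called, both higher, where 3.66% of the 14674 genes tested were called, 1.63% higher and 2.03% lower. Together with Cry1, which averaged 29.5 ± 2.27 CPM in CAC and 18.9 ± 4.38 CPM in AM mice (log2 difference -0.64 ± 0.17, edgeR FDR 0.0644), they were the 3 of 10 genes whose groups did not overlap, against 15.3% of all genes, each with an exact permutation p of 0.0286. DESeq2 called Cry1 lower as well, among 1120 genes that it called in all. Cry2 averaged 73.9 ± 20.5 CPM in AM mice, a log2 difference from CAC of -0.50 ± 0.19 with an edgeR FDR of 0.166. The other 6 differences ran from -0.56 (Per2) to 0.34 (Nr1d2), and that of Per2 was -1.22 without AM mouse 3. The Nr1d1 call held without any 1 mouse, with FDR between 0.00925 and 0.0243, whereas the Dbp call held only when AM mouse 4 was the one left out, with FDR from 0.0311 to 0.0718. Without the 4 libraries that stood apart, which leaves 2 AM and 3 CAC mice, the log2 difference was 1.92 for Nr1d1 (edgeR FDR 0.0968) and 2.20 for Dbp (edgeR FDR 0.217), in a fit that called 0 of 14936 genes in all. The Dbp call was also lost with labelled strain as a covariate (log2 difference 2.79, edgeR FDR 0.0505) and with all 16 mice in 1 fit (2.75, FDR 0.0700). Tendon markers moved with this comparison, with the same 3 of 5 called higher and sums of 499 to 774 CPM in AM against 182 to 439 CPM in CAC mice, and their part was not tested.

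Comparing KD with CAC mice asks what the knock-down of Rab27a and Rab27b in the tumor cells changed. No member was called by edgeR, and 0.00685% of the 14593 genes tested were, while 3 of 10 members had an unadjusted p under 0.05, against 11.1% of all genes. These were the 3 members whose groups did not overlap, against 7.29% of all genes. Dbp averaged 124 ± 72.0 CPM in KD mice, with a fitted log2 difference from CAC of 2.94 ± 0.53, or 7.66-fold (edgeR FDR 0.231). Arntl averaged 12.02 ± 7.67 CPM in KD and 33.4 ± 7.44 CPM in CAC mice (log2 difference -1.47 ± 0.47, edgeR FDR 0.315), and Clock 26.7 ± 9.94 against 45.5 ± 4.25 CPM (log2 difference -0.77 ± 0.24, edgeR FDR 0.315). The smallest exact permutation p of 0.0286 was reached by all 3. Nr1d1 averaged 172 ± 82.5 CPM in KD mice and differed from CAC by 0.75 ± 0.34 (edgeR FDR 0.458), and by 0.36 to 0.94 with each mouse left out. DESeq2 called 1 member in this comparison, Dbp, with an FDR of 8.75e-07, among 332 genes that it called in all.

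**Figure D2:**
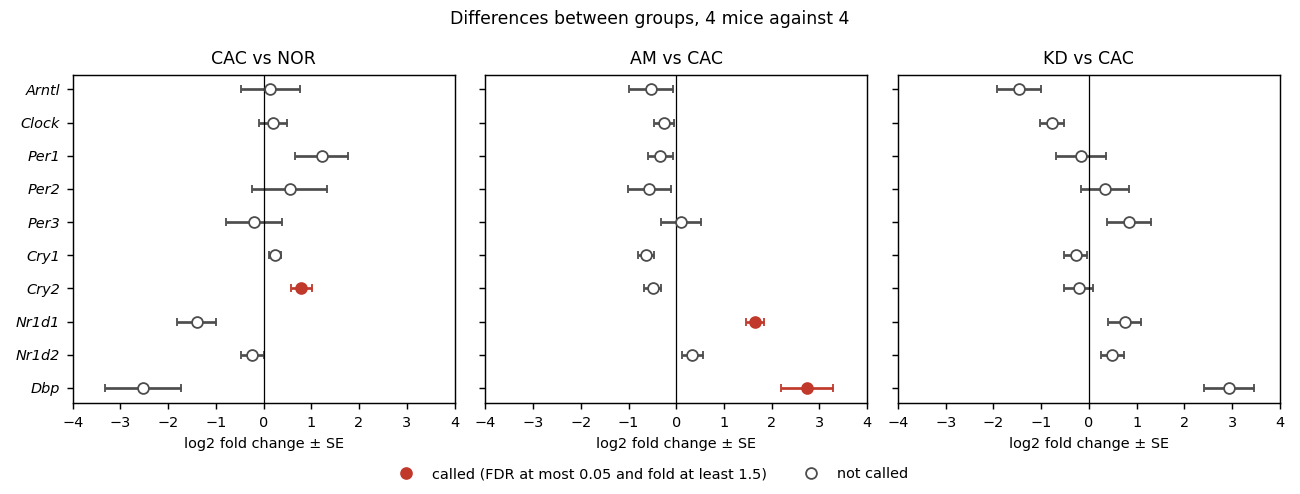
Log2 differences of the 10 clock genes in the comparisons CAC against NOR, AM against CAC and KD against CAC from edgeR's quasi-likelihood fit, with bars of 1 SE; filled points passed the criterion. Filled points are Cry2 at 0.78 in CAC against NOR, and Nr1d1 at 1.65 and Dbp at 2.74 in AM against CAC.

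The AM and KD comparisons use the same 4 CAC mice, as the CAC comparison does, so their values are not independent. Set beside NOR mice directly, neither AM nor KD mice had a called clock gene, by edgeR, DESeq2 or limma-voom, and 0 of 10 members had an unadjusted edgeR p under 0.05 in either comparison. Over all genes edgeR called none there (0%), while DESeq2 called 70 for AM and 31 for KD. The groups overlapped for 10 of 10 members, where 5.11% of all genes in AM against NOR and 2.26% in KD against NOR did not overlap, and 9.19% of genes in AM against NOR and 3.54% in KD against NOR had an unadjusted p under 0.05. The log2 differences ran from -0.39 (Cry1) to 0.88 (Per1) for AM and from -1.31 (Arntl) to 1.04 (Per1) for KD mice. Differences of this size were not detectable beyond the spread between these mice.

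The wide spread of NOR mice followed the strain labels. Within NOR, the 2 mice labelled BALB/c were both above the 2 labelled C57BL/6 for 6 genes: Per2 by 10.8-fold, Dbp by 7.77-fold, Per3 by 5.16-fold, Per1 by 4.80-fold, Nr1d2 by 1.77-fold and Cry2 by 1.73-fold in the means. They were both below for Arntl, where the mean of those labelled C57BL/6 was 5.81-fold higher, for Clock (2.02-fold) and for Cry1 (1.21-fold), and Nr1d1 overlapped. So 9 of 10 members separated the labels in NOR, where 40% of all 15220 genes did in one direction or the other, and 5.83% of all genes did so with a ratio of 2 or more. In CAC mice 6 of 10 members overlapped between the labels, in AM mice 8 and in KD mice 3. The share over all genes was not computed for CAC, AM or KD mice, so these counts cannot be set against other genes. Across all 16 mice, with group in the model, no member was called for labelled strain (0% of all genes). An unadjusted edgeR p under 0.05 was found for 4 of 10 members, against 1.63% of all genes, namely Arntl at -1.01 ± 0.45 and Per1, Per2 and Per3 at 0.97 ± 0.37, 1.37 ± 0.50 and 0.92 ± 0.42 on the log2 scale, BALB/c minus C57BL/6. The strain label itself goes against the 4 libraries that stand apart, none of which is a NOR mouse.

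The CAC against NOR difference was also tested for a dependence on the label. No interaction passed an FDR of 0.05, but 7 of 10 members had an unadjusted edgeR p under 0.05, against 4.89% of all genes. The interaction, the log2 difference in mice labelled BALB/c minus that in mice labelled C57BL/6, was -2.96 ± 0.39 for Per3 (edgeR FDR 0.225), -3.32 ± 0.57 for Per2 (FDR 0.481), -3.70 ± 0.70 for Dbp (FDR 0.523) and -2.03 ± 0.42 for Per1 (FDR 0.558). For the activators it had the opposite sign, 2.45 ± 0.43 for Arntl (edgeR FDR 0.505) and 1.32 ± 0.33 for Clock. The same term for AM against CAC had an unadjusted p under 0.05 for 1 of 10 members (12.4% of all genes), and for KD against CAC for 3 of 10 (5.65% of all genes), with no FDR under 0.05.

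The groups differed in how much their mice varied. On the log2 scale the SD over mice was smallest in CAC for 9 of 10 genes, the exception being Nr1d1 with 0.22 in AM and 0.36 in CAC mice, and it was largest in NOR for 7 and in KD for 3. For the NOR, CAC, AM and KD groups in that order, the median SD of the members was 1.15, 0.315, 0.513 and 0.818. Over all 15220 genes the medians were 0.217, 0.287, 0.264 and 0.373, so the order over the clock genes was not that of all genes. These values are a description with no test.

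The balance between Dbp and Arntl, which stand at opposite sides of the loop, was set out for each mouse as a ratio of CPM, without adjustment for length. It was 0.269, 0.620, 22.8 and 14.4 in NOR mice, 0.515, 0.657, 0.1599 and 0.717 in CAC mice, 4.09, 5.81, 25.6 and 0.820 in AM mice and 3.79, 2.97, 28.3 and 40.8 in KD mice. CAC mice all lay under 1 with NOR mice 1 and 2 and AM mouse 4, and the other 9 mice lay at 2.97 or above.

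**Figure D3:**
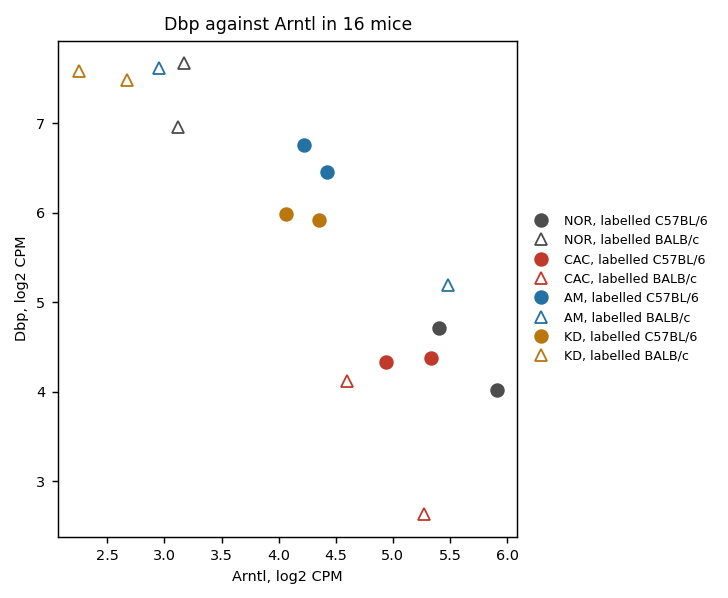
Dbp against Arntl in the 16 mice, both as log2 CPM; each point is 1 mouse, coloured by group, with filled circles for C57BL/6 and open triangles for BALB/c labels. The mice lie along a falling band, with the 4 CAC mice together at high Arntl and low Dbp, and NOR mice at both ends.

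Across mice, 4 pairs of the loop were tested for correlation. After each group's mean was removed from log2 CPM, Dbp and Per3 had Pearson's r = 0.94 and Spearman's rho = 0.94 (n = 16, permutation p = 0.00033, adjusted over 4 pairs 0.00132). Arntl and Dbp had r = -0.92 and rho = -0.91 (permutation p = 0.00115, adjusted 0.0023). Per1 and Per2 had r = 0.88 and rho = 0.87 (permutation p = 0.00255, adjusted 0.0034). Arntl and its repressor Nr1d1 had r = 0.55 and rho = 0.50 (permutation p = 0.101, adjusted 0.101). Without the 2 mice farthest from the median, r was 0.94, -0.90, 0.80 and 0.45 in that order, with permutation p of 0.0004, 0.00726, 0.0396 and 0.305. With the labelled strain's mean removed as well as the group's, r was 0.81 for Dbp with Per3 (rho = 0.46, permutation p = 0.266) and -0.91 for Arntl with Dbp (permutation p = 0.0543), so that neither passed 0.05, while Per1 with Per2 had r = 0.73 (permutation p = 0.00751) and Arntl with Nr1d1 r = 0.13 (permutation p = 0.647). These permutations could only swap the 2 mice of a group and label. Their p is therefore coarse, and the pairs cannot be ranked by it. Without the 4 libraries that stood apart (n = 12), the permutation p was 0.00629 for Dbp with Per3 (r = 0.97), 0.00717 for Arntl with Dbp (r = -0.91) and 0.0535 for Per1 with Per2 (r = 0.89), so that the last no longer passed 0.05. NOR mice form separate pairs by label, so r was also computed within each label. In the 8 mice labelled C57BL/6, r was 0.30 for Dbp with Per3, -0.75 for Arntl with Dbp, 0.96 for Per1 with Per2 and 0.28 for Arntl with Nr1d1. In the 8 mice labelled BALB/c it was 0.90, -0.92, 0.47 and 0.11. Arntl with Nr1d1 was thus weak in both labels, and Dbp with Per3 was weak in mice labelled C57BL/6.

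Over all 45 pairs of members, given as a description of the same 16 libraries, 24 correlations were positive and 21 negative, 12 were above 0.8 and 8 below -0.8. The strongest beside those above were Per3 with Nr1d2 at 0.94, Clock with Per2 at -0.94, Per2 with Per3 at 0.93, Arntl with Per3 at -0.92 and Nr1d2 with Dbp at 0.91. Arntl and Clock thus lay opposite the Per genes, Nr1d2 and Dbp, while Nr1d1 lay on the side of Clock at 0.82. With the label's mean removed too, 40 of the 45 pairs kept their sign. Among the 5 that did not was Arntl with Per1, at -0.60 before and 0.048 after.

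**Figure D4:**
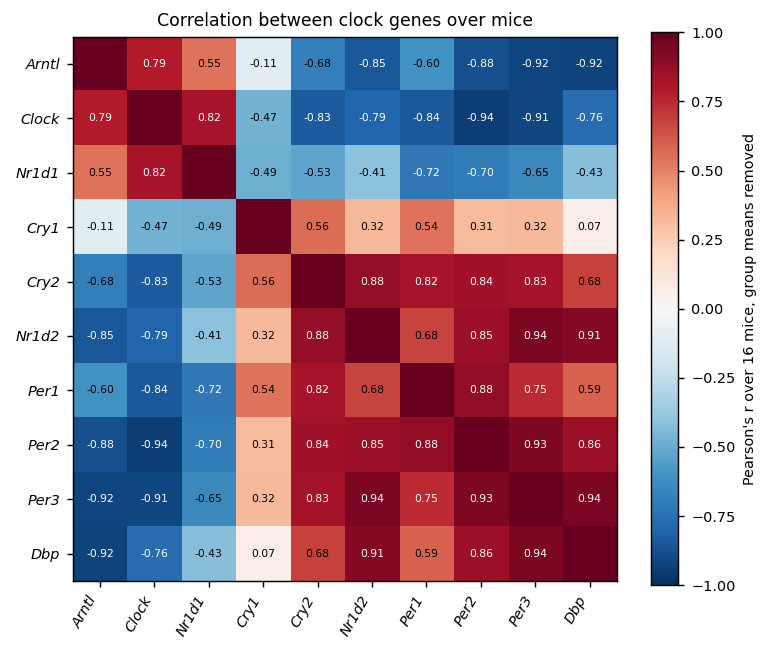
Pearson's r for each pair of the 10 clock genes over 16 mice, from log2 CPM with the group mean removed; the colour runs from negative to positive. Arntl and Clock form a block of negative values with Per2, Per3, Nr1d2 and Dbp, as at -0.94 for Clock with Per2, and the latter 4 form a positive block, as at 0.94 for Per3 with Nr1d2.

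Among 13200 other genes, those whose log2 CPM without any centring followed Arntl most closely over the 16 mice were Rasl11a, Iffo2 and Fam124b at r = 0.87 and Npas2 and Pim1 at 0.84. Npas2 encodes a paralog of CLOCK that also pairs with ARNTL. It was at 9.78, 7.90, 0.524 and 0.481 CPM in NOR mice and at 1.81, 1.23, 3.75 and 3.64 CPM in CAC mice, the same split by label as Arntl in NOR. The genes nearest to Dbp were Blcap and Mamstr at 0.86, Zfp13 and Sars2 at 0.84 and Astn2 at 0.83.

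Of 17 further clock genes, 16 could be tested, all but Rorb. In CAC compared to NOR, 2 of the 16 rose and 2 fell, beside the 4.32% higher and 5.13% lower of all genes. Rora, a receptor that activates Arntl through ROR elements, was at 68.9, 63.4, 92.2 and 82.2 CPM in NOR, 162, 151, 126.5 and 149 CPM in CAC, 68.9, 79.9, 106 and 69.6 CPM in AM and 42.0, 108, 111 and 96.6 CPM in KD mice. Every CAC mouse was above every mouse of the other groups. Compared to NOR, Rora rose in CAC mice by a log2 difference of 0.94 ± 0.13 (edgeR FDR 0.00473). Nfil3, a repressor that competes with DBP at D-boxes, rose by 1.36 ± 0.26 (FDR 0.0141). It was at 32.2, 35.2, 19.7 and 45.9 CPM in NOR, 81.3, 95.4, 59.4 and 106 CPM in CAC, 9.49, 7.65, 17.6 and 47.4 CPM in AM and 10.2, 50.8, 39.0 and 15.0 CPM in KD mice. Bhlhe41 and Bhlhe40, which encode the E-box repressors DEC2 and DEC1, fell. Bhlhe41 was at 69.0, 46.7, 95.7 and 60.8 CPM in NOR, 18.0, 23.3, 15.3 and 15.3 CPM in CAC, 63.8, 48.2, 99.4 and 62.4 CPM in AM and 77.2, 38.8, 43.0 and 77.7 CPM in KD mice. The 4 CAC mice were the 4 lowest of all 16. The log2 difference of CAC from NOR was -1.93 ± 0.24 for Bhlhe41 (edgeR FDR 0.00337) and -0.61 ± 0.16 for Bhlhe40 (FDR 0.0424).

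In AM compared to CAC, 2 of the same 16 genes rose, Bhlhe41 by 1.93 ± 0.24 (edgeR FDR 0.00759) and Bhlhe40 by 0.99 ± 0.13 (FDR 0.00937), and 1 fell, Rora with a log2 difference of -0.86 ± 0.14 (FDR 0.0168), beside the 3.66% of all genes called in that comparison. Nfil3 had the largest difference of the list, -2.05 ± 0.55, with all AM mice below all CAC mice, but was not called (FDR 0.0729). In KD compared to CAC none of the 16 was called by edgeR. Neither labelled strain nor its interaction with group had an FDR of at most 0.05 for any of them.

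**Figure D5:**
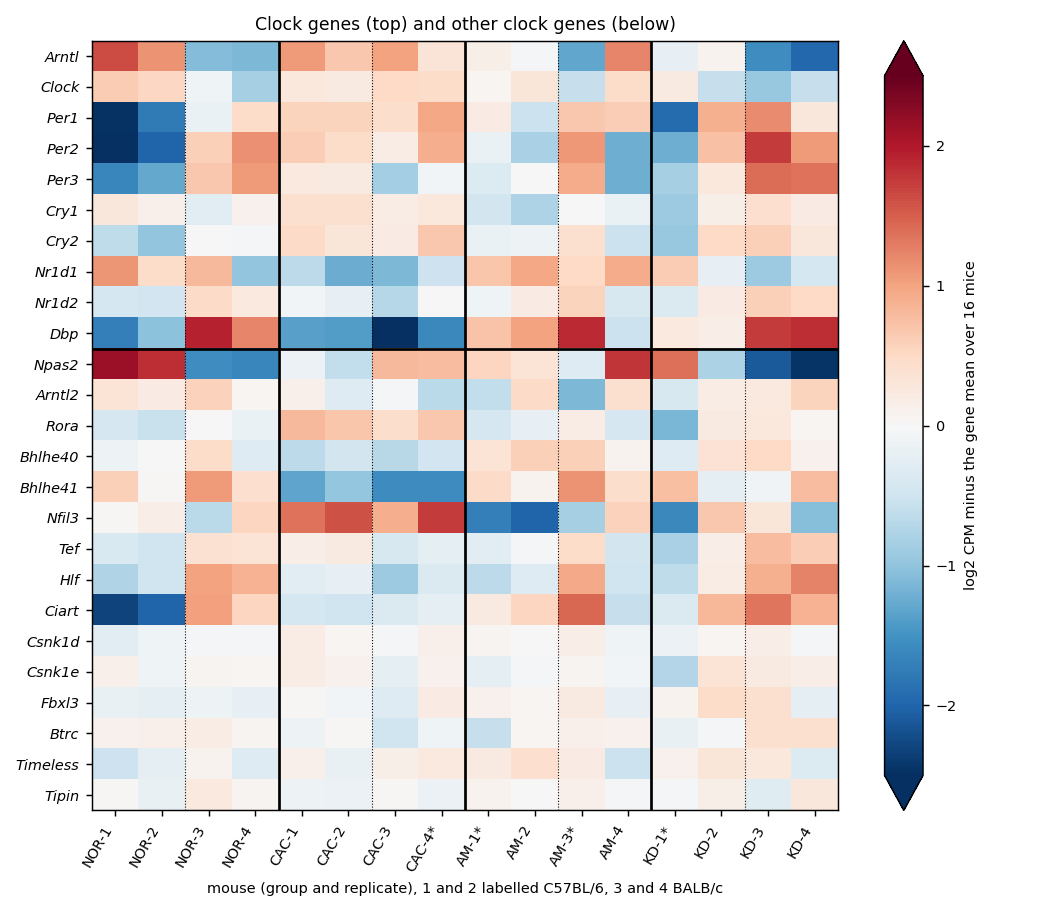
Levels of the 10 clock genes and of further clock genes in the 16 mice, drawn as log2(CPM + 0.25) minus the gene's mean over all mice, with the columns in group order; an asterisk marks the 4 libraries that stood apart. Rora and Bhlhe41 separate CAC mice from NOR mice, while Arntl, the Per genes and Dbp among the members, and Npas2 among the further genes, differ several-fold between the 2 pairs of NOR mice.

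Counts of further lists stand beside the 9.45% of all genes called in CAC compared to NOR and the 3.66% in AM compared to CAC. Of 8 genes listed as outputs of the clock, 1 rose in CAC compared to NOR, Tsc22d3, a glucocorticoid-induced leucine zipper gene, by 1.24 ± 0.30 (edgeR FDR 0.0312), a share near that of all genes. In AM compared to CAC, Coq10b rose and Lonrf3 fell, and in KD none was called. Since glucocorticoids act on Per1 and Per2, their known response genes were read too. Of 9 such genes, 5 rose in CAC compared to NOR, with log2 differences of 1.96 for Fkbp5, 0.95 for Klf15, 2.37 for Ddit4, 3.88 for Mt1 and 4.76 for Mt2. CAC mouse 4, one of the libraries that stood apart, had the highest levels of the last 2, 1016 CPM of Mt1 and 599.8 CPM of Mt2. The other 3 CAC mice had 172 to 244 CPM of Mt1 and 149.8 to 177 CPM of Mt2, against at most 54.7 and 21.2 CPM in NOR mice. In AM compared to CAC, 4 of the 9 fell, with log2 differences of -1.75 for Fkbp5, -1.02 for Klf15, -3.43 for Mt1 and -3.74 for Mt2, and in KD compared to CAC none was called. Their summed CPM lay between 2089 and 4595 in CAC mice, above the 704 to 1279 of NOR mice, while AM mice had 934 to 1945 and KD mice 948 to 2144. The part of these levels in the clock genes' values was not tested. Of 8 immediate early genes, Sik1 rose in CAC compared to NOR by 1.19 on the log2 scale, and 3 fell, Fos, Egr1 and Nr4a1, with log2 differences of -2.29, -2.11 and -1.21, and none was called in AM or KD compared to CAC.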

How the data were processed

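Poly(A) RNA from gastrocnemius muscle of 16 mice was sequenced by the authors. The deposited table gives whole-number read counts per gene, not normalized, and a table of FPKM values that the authors scaled by transcript length and library total. The submitters' processing notes name fastp, Bowtie2, HISAT2 and StringTie 1.3.1 and the builds mm9 and GRCm38, with no roles; the counting tool is not given in the sources used here. Of 21923 gene IDs, 21905 matched GENCODE M21 (GRCm38), which gave positions.

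Counts were filtered with filterByExpr (minimum count 10, minimum total 15), scaled by the trimmed mean of M-values (TMM) and tested with edgeR 4.0.16 in R 4.3.3, by quasi-likelihood F tests of the groups compared, with Benjamini-Hochberg adjustment over all genes tested. A call needed FDR of at most 0.05 and at least 1.5-fold change. SE is the absolute log2 difference divided by the square root of F. The study's own test, NOISeq, was not run here. Each member was also tested on CPM with a two-sided exact permutation test. Correlations used log2 CPM with a prior count of 2 and 100000 permutations within groups, or within group and label where the label's mean was removed too. DESeq2 1.42.0, limma-voom (limma 3.58.1), other scalings, no filter, labelled strain as a covariate and each mouse left out were tried as alternatives. Scripts were tested on simulated data. Figures were drawn with matplotlib 3.10.9.

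The 10 members, the gene lists and the tests were chosen with earlier results of these data known, so no list is independent support. The genes named are all members, called genes of the lists, the uncalled endothelial marker Kdr and, for Arntl and Dbp, the 5 genes with the highest r. Called neutrophil and erythroid markers are given only as sums. Trim12a and Rps2, in the check of the labels, were chosen after their values were seen. The labels do not say more of the replicates than that they are separate mice. No 2 libraries of a group were duplicates: the chi-square per degree of freedom between replicates was at least 69.3 over 24 pairs. No correlation or test used the FPKM values. One further clock gene of the planned list is not reported here.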

Additional observations from a re-analysis of the deposited data

Results flagged for a closer look

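For 4 clock genes, both CAC mice of one strain label lay above both NOR mice of that label, and both CAC mice of the other label lay below both of theirs. The log2 ratio of the CAC to the NOR mean in mice labelled C57BL/6 and in mice labelled BALB/c was -0.53 and 1.83 for Arntl, and -0.33 and 0.91 for Clock. It was 1.71 and -1.31 for Per3, and 0.32 and -0.67 for Nr1d2. The difference was tested as an interaction in edgeR: the FDR was 0.505 for Arntl, 0.225 for Per3 and 0.964 for Nr1d2, and no clock gene passed 0.05. Of 40 sets of 4 mice, 1 per gene and group, none held a mouse far enough from the other 3 to be singled out, where chance would single out about 1 in 20.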

How the results depend on the processing

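The count of called clock genes in CAC against NOR was 1 and became 0 with DESeq2-style size factors in edgeR, 0 without a filter on low counts, 3 with DESeq2 (Cry2, Nr1d1 and Dbp, among 1921 of 14666 genes), 2 with all 16 mice in 1 fit (Nr1d1 and Dbp, among 1204 of 15220 genes), 2 in mice labelled C57BL/6 alone (Per1 and Per3, among 247 of 14604 genes), 0 in those labelled BALB/c alone (where 0 of 15059 genes were called), 0 without the 5 libraries with few B cell transcripts, 0 without the 4 libraries that stood apart (here the same fit as leaving out CAC mouse 4), and 0 to 1 with each mouse left out (Dbp without NOR mouse 1, Nr1d1 without NOR mouse 4). With upper-quartile factors it was 1, but Nr1d1 (FDR 0.0449) in place of Cry2 (FDR 0.0595). In AM against CAC the count was 2 and became 3 with DESeq2 (Cry1 as well), 1 (Nr1d1) with all 16 mice in 1 fit (among 231 of 15220 genes) and with labelled strain as covariate (among 339 of 14674 genes), 0 in either label alone (where 0 of 14683 and 0 of 14893 genes were called, with log2 differences of 1.78 and 1.495 for Nr1d1 and 2.27 and 3.30 for Dbp), 1 without the libraries with few B cell transcripts, 0 without the 4 libraries that stood apart, and 1 to 2 with each mouse left out. In KD against CAC it was 0 and became 1 with DESeq2. Over all genes, DESeq2 called 1120 in AM against CAC where edgeR called 537, and 332 in KD against CAC where edgeR called 1. It stayed at 0 in AM and KD against NOR, for labelled strain and for the interactions. The last 2 exclusions were chosen after seeing the data. The cause of these changes was not tested.

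With a replicate block the count in AM against CAC was 0, in a fit that called 0 of 14674 genes and gave log2 differences of 1.66 for Nr1d1 and 2.57 for Dbp, and the log2 difference of Per3 became 0.17 in CAC against NOR and -0.080 in AM against CAC. Replicate numbers did not pair the mice: of 24 same-number pairs, 6 correlated above 0.1, over a range of -0.636 to 0.601, and 5 of 24 correlated best with their own number.

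In CAC against NOR, the sign also turned for Per3 with limma-voom (0.13), labelled strain as covariate (0.19) and mice labelled C57BL/6 alone (1.71). In those mice it turned for Arntl (-0.53), Clock (-0.33) and Nr1d2 (0.32), and Per2 turned in mice labelled BALB/c alone (-0.30) and without the libraries with few B cell transcripts (-0.047). Leaving out each mouse gave -0.18 to 0.76 for Arntl, -0.034 to 0.42 for Clock and -0.50 to 0.31 for Per3. In AM against CAC, Per3 turned with limma-voom (-0.029), mice labelled C57BL/6 alone (-0.39) and without the 4 libraries (-0.46), ran from -0.37 to 0.35 with each mouse left out, and Clock turned without the 4 libraries (0.026). In KD against CAC, mice labelled C57BL/6 alone gave -0.46 for Per2 and -0.40 for Per3, those labelled BALB/c alone 0.052 for Per1 and 0.067 for Cry1, the libraries with few B cell transcripts left out -0.030 for Per2, and the 4 libraries left out 0.32 for Per1 and 0.13 for Cry2. Leaving out each mouse gave -0.089 to 0.67 for Per2, -0.49 to 0.18 for Per1 and -0.36 to 0.028 for Cry2. Of 630 alternative values for single genes, 555 kept direction and side of the threshold, 31 changed sign, 34 lost a call and 10 gained one. Most values were uncalled in the main fit, so staying uncalled counts as kept. A call could be lost only for Cry2 in CAC against NOR and for Nr1d1 and Dbp in AM against CAC. Each of these had 21 alternatives.

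With the labelled strain's mean removed too, r was -0.91 for Arntl with Dbp (permutation p = 0.0543) and 0.81 for Dbp with Per3 (permutation p = 0.266), from permutations within group and label. Without the 4 libraries it was 0.89 for Per1 with Per2 (permutation p = 0.0535), from permutations within groups. In mice labelled C57BL/6 alone, then BALB/c alone, r was 0.28 and 0.11 for Arntl with Nr1d1, -0.75 and -0.92 for Arntl with Dbp, 0.30 and 0.90 for Dbp with Per3, and 0.96 and 0.47 for Per1 with Per2.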
